A study of Mus musculus with 6 samples.

Results

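The genes described here are the 4 Notch receptors Notch1, Notch2, Notch3 and Notch4, the 3 ligands Jag1, Jag2 and Dll4, and the 3 target genes Hey1, Hey2 and Heyl. They were taken by symbol, and all 10 were present among the 55450 genes of the matrix. The cells came from mouse aortic tissue of 3 Best3FL/FL samples, which carry a floxed Best3 gene, and 3 Best3SMKO samples, read here as a smooth muscle knockout of the same gene. The sources used here do not give the Cre driver, the age of the mice, any treatment, or whether a sample was 1 animal or a pool. The cell barcodes end in 6 suffixes, called libraries 1 to 6, which match no sample label. No cell could therefore be tied to a genotype, and no value below compares knockout with control. Best3 itself cannot serve as a check, with 26 UMIs in 26 barcodes, of which 15 UMIs lay in smooth muscle-like cells that were kept.

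Notch receptors sit in the cell membrane and are cut when a ligand on a neighbouring cell binds them. The freed inner part moves to the nucleus, joins the DNA-binding protein RBPJ and turns on genes such as the Hey repressors. In blood vessels the pathway is best known for setting arterial identity and limiting sprouting in endothelium, where Dll4 and Notch1 act, and for the maturation and upkeep of smooth muscle and pericytes, where Jag1 and Notch3 act.

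Barcodes per library numbered 7475 to 16269, and totals were 51813179 to 96144873 UMIs (unique molecular identifiers, each counting 1 captured RNA molecule), with a median of 4708 to 6289.5 UMIs per barcode. After filtering, 51097 cells were grouped into 17 classes named from marker lists, and 3280 of these cells stayed unnamed. The unnamed cells include cluster 15, with 935 cells and summed smooth muscle markers at 47114 CPM, against 53081 CPM in the smooth muscle class. Cluster 15 also had the cardiomyocyte markers Tnnt2 and Actc1 at 566 and 507 CPM. Unnamed cluster 8, with 1615 cells, had summed smooth muscle markers at 19846 CPM. Neither cluster is in any smooth muscle value below. Each name means "like", since it rests on markers and not on an annotation by the authors. Neither the 10 genes nor the other Notch pathway genes were used to cluster or to name cells. Library 5 stood apart in makeup, holding 452 of 525 B cell-like and 302 of 356 epithelial cell-like cells. Across libraries, 414 barcode sequences occurred more than once. Pecam1 and Myh11 are in the lists that named their classes, so their contrast follows from the naming and checks neither names nor tissue. Pecam1, an endothelial adhesion molecule, stood at 2501 CPM in endothelial cell-like cells and 46.6 CPM in smooth muscle cell-like cells, and Myh11, the smooth muscle myosin heavy chain, at 290 and 6939 CPM.

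Levels are in CPM, in which the UMIs of a gene are divided by all UMIs of the group on the usual scale, and every level below is on this scale. Cells of a class share their libraries and are not replicates, and the matrix counts as 1 sample, so no p-value is given. A gene is called higher or lower in a group by a rule of size. Its pooled levels must differ at least 2-fold and reach 10 CPM on the higher side, and each library that has 20 or more cells on both sides must show the same sign. Intervals are exact 95% Poisson or binomial intervals and cover counting error only. The summed smooth muscle markers reached 2767 CPM in endothelial cells, 5.21% of their level in smooth muscle cells, and the summed endothelial markers reached 129 CPM in smooth muscle cells, 1.802% of their home level. Free RNA in droplets gives UMIs in cells that do not express a gene, and members at or below these shares of their home level are read as background.

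Of the 10 genes, 8 had an entry in the RefSeq promoter table of GRCm38.p6, which gives 250 bases before and 50 after each transcription start. Hey1 and Heyl had none. Of the promoters in that table, 3 are shown. Hey2 is shown as the target gene of large artery endothelium, and Notch4 as an endothelial receptor at background in smooth muscle. Notch3 is shown as the receptor of the muscular and pericyte-like cells. Both strands were searched for GTGGGAA, the core of the RBPJ site, for AGGAAG, an ETS-type core, and for GGGCGG, the GC box. These motifs were chosen after a first look, and the copies marked in capitals do not overlap each other. In Hey2 (chr10:30842734-30843033, minus strand) the capitals mark 2 copies of the RBPJ core, in Notch4 (chr17:34564045-34564344, plus strand) 4 copies of the ETS-type core, and in Notch3 (chr17:32166841-32167140, minus strand) 4 GC boxes.
Hey2: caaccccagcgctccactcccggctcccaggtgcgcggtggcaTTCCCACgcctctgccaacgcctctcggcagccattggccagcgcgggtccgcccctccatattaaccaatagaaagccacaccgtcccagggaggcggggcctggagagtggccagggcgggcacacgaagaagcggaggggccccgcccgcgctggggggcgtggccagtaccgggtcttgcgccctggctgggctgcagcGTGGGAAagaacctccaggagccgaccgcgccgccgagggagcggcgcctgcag
Notch4: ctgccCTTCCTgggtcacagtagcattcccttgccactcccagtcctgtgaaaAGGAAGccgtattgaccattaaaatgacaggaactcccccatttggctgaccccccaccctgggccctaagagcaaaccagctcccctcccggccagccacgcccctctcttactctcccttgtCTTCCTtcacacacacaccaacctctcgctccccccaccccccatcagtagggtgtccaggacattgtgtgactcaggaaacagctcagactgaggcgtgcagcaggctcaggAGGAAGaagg
Notch3: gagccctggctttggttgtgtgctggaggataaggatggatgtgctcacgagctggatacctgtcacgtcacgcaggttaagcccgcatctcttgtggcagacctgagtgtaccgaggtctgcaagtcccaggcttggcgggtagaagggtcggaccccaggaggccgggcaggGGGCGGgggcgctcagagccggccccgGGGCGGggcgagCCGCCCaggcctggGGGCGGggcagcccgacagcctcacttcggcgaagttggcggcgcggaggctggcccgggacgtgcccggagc

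The RBPJ core occurred in the Hey2 window beginning 207 bases before the start, on the opposite strand, and 4 bases before the start, on the gene's own strand. It was absent from the windows of the other 7 genes with an entry, while 6.38% of all 32851 promoters held it at least once and 0.256% held it at least 2 times. The ETS-type core was found in 35.4% of all promoters, and 0.432% had 4 or more copies. The GC box was found in 35.7% of promoters, and 5.49% had 4 or more copies. Among the other genes here, Notch2 had 7 copies, Notch1 and Jag2 had 5 each, Hey2 had 3, Dll4 had 2, and Notch4 and Jag1 had 0, so that 3 of them had more than Notch3. A match describes letters in a window and not a site that is used.

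Endothelial and smooth muscle cells carried different sets of Notch genes. Of the 10 genes, 6 were higher in the 8398 endothelial cells than in the 13043 smooth muscle cells: Notch1, Notch4, Jag1, Jag2, Dll4 and Hey1. Another 3, Notch2, Notch3 and Heyl, were higher in smooth muscle. Hey2 was called in neither direction. By the same rule, 19.1% of all 9728 genes that reached 10 CPM on either side were higher in endothelium and 13% were higher in smooth muscle. Without the unnamed subclusters of both classes the counts were again 6 and 3.

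**Figure D1:**
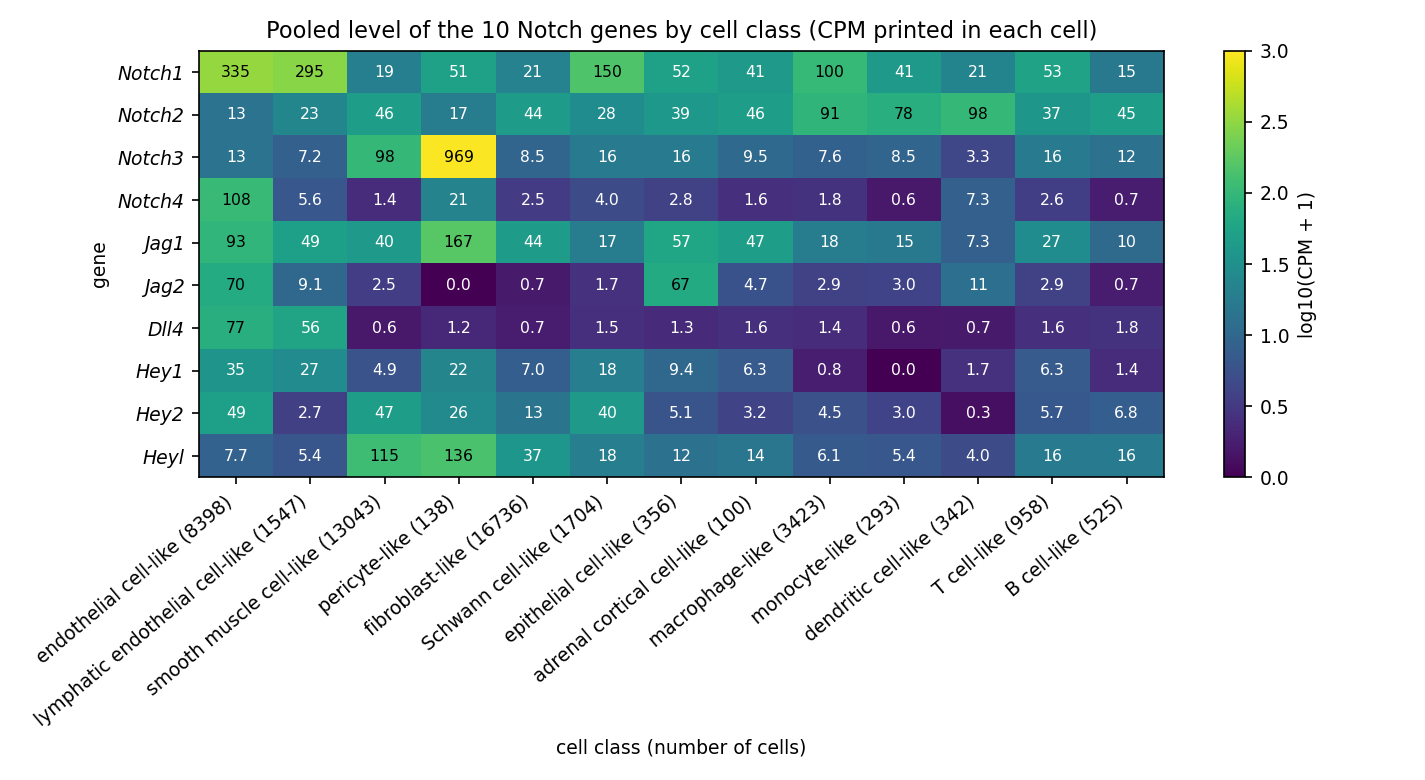
Heat map of the pooled level of the 10 Notch genes (rows) in the 13 classes of at least 100 cells (columns, with cell numbers). Colour is log10(CPM + 1) and the printed values are CPM. Notch1 is at 335 CPM in endothelial cells, and Notch3 at 969 CPM in pericyte-like cells.

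Among the receptors, Notch1 and Notch4 were higher in endothelium and Notch2 and Notch3 in smooth muscle. Notch1 (ENSMUSG00000026923, chromosome 2, 26457903 to 26516663 of GRCm38, protein-coding), the receptor needed for arterial endothelium, lay between 300 and 376 CPM in endothelial cells, with a median over the 6 libraries of 328 CPM. In smooth muscle cells the library values ran from 14.0 to 28.9 CPM around a median of 16.9. No library of one class overlapped the other, and the pooled level was 18.1-fold higher in endothelium (95% interval 17.3 to 18.9). The level expected in smooth muscle from the 1.802% share of endothelial markers was 6.05 CPM, below the 18.5 CPM measured. Outside endothelium, Notch1 reached 150 CPM in Schwann cell-like cells and 99.9 CPM in macrophages, whose library ranges overlapped each other (111 to 218 and 82.3 to 114 CPM).

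Notch4 (ENSMUSG00000015468, chromosome 17, 34564268 to 34588503), a receptor known mainly from endothelium, was at 108 CPM in endothelial cells. Its library values ran from 81.3 to 127 CPM there, with a median of 99.8, and from 0.960 to 2.74 CPM in smooth muscle, with a median of 1.29. The pooled ratio was 77.7 (67.1 to 90.6). The 1.39 CPM in smooth muscle lay below the 1.95 CPM expected from the share of endothelial markers and is read as background. Pericyte-like cells had 20.7 CPM of Notch4 against 7.25 CPM expected, from 17 UMIs, with 5.10, 9.51 and 55.0 CPM as the lowest, median and highest of 3 libraries.

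Notch3 (ENSMUSG00000038146, chromosome 17, 32120820 to 32166852), the receptor of mural cells whose human counterpart is mutated in the small vessel disease CADASIL, followed the opposite course. In smooth muscle cells it lay between 53.2 and 204 CPM, median 81.5, and in endothelial cells between 5.19 and 16.5 CPM, median 12.1. All 6 smooth muscle values exceeded all 6 endothelial ones, and the pooled ratio was 7.60 (6.98 to 8.28). An unnamed endothelial subcluster of 214 cells, described with the venous cells, stood at 151 CPM. Without the unnamed subclusters of both classes the levels were 6.80 CPM in endothelial and 101 CPM in smooth muscle cells, a ratio of 14.8. Pericyte-like cells, 138 in all, stood far above both at 969 CPM, and the 3 libraries with at least 20 of these cells gave 817 to 979 CPM. In the thinned data, where every cell was reduced to 2000 UMIs, 83.5% of pericyte-like cells had a Notch3 UMI, against 14.6% of smooth muscle cells and 1.77% of endothelial cells. The unthinned shares were 94.9%, 38.5% and 3.92%, and the median depth was 5237.5, 10347 and 4317.5 UMIs in these 3 classes.

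Notch2 (ENSMUSG00000027878, chromosome 3, 98013527 to 98150361), a receptor also used by marginal zone B cells and myeloid cells, was high in the myeloid classes. Dendritic cell-like cells had 98.1 CPM, macrophages 91.4 CPM and monocyte-like cells 78.1 CPM, and the library ranges of these neighbours overlapped. Smooth muscle cells had 33.6 to 60.9 CPM, median 41.99, close to fibroblasts with 35.3 to 53.4 CPM, median 41.5. Endothelial cells were lowest of the 13 classes at 13.0 CPM, and their library values of 10.3 to 19.1 CPM, median 12.2, stayed below every smooth muscle value. The smooth muscle level was 3.51-fold higher (3.22 to 3.83).

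The ligands were mostly endothelial. Dll4 (ENSMUSG00000027314, chromosome 2, 119325784 to 119335962), the ligand that restrains tip cells during sprouting, lay between 59.2 and 90.1 CPM in endothelial cells, median 72.9. Smooth muscle cells had 0.313 to 1.37 CPM, median 0.544, and the pooled ratio was 126 (101 to 160). Smooth muscle's 0.606 CPM was below the 1.38 CPM expected from the share of endothelial markers. The same held for fibroblasts at 0.700 CPM with 2.02 expected.

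Jag2 (ENSMUSG00000002799, chromosome 12, 112907819 to 112929776), a ligand of the Jagged type, lay between 55.7 and 88.2 CPM in endothelial cells, median 70.6, and between 1.51 and 4.31 CPM in smooth muscle, median 2.47. The ratio was 27.8 (24.8 to 31.2). Epithelial cell-like cells came next at 67.0 CPM with library values from 0 to 74.1 CPM. Of these cells, 302 of 356 came from library 5. No Jag2 UMI was counted in the 138 pericyte-like cells, which allows up to 3.65 CPM.

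Jag1 (ENSMUSG00000027276, chromosome 2, 137081456 to 137116644), the ligand through which endothelium signals to the muscle layer, was spread over more classes. It was at 167 CPM in pericyte-like cells, 92.8 CPM in endothelial cells, 44.1 CPM in fibroblasts and 39.6 CPM in smooth muscle cells. The endothelial library values of 78.5 to 109 CPM, median 94.4, did not overlap those of smooth muscle at 30.1 to 54.3 CPM, median 38.0. The ratio between the 2 classes was 2.34 (2.25 to 2.44), the smallest of the 6 genes called higher in endothelium.

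The targets split. Heyl (ENSMUSG00000032744, chromosome 4, 123233556 to 123249875), a Hey-type repressor, lay between 91.0 and 134 CPM in smooth muscle cells, median 118, and between 6.31 and 11.1 CPM in endothelial cells, median 7.42. The ratio was 14.8 (13.3 to 16.6). The endothelial 7.75 CPM stood near the 5.99 CPM expected from the share of smooth muscle markers. Pericyte-like cells had 136 CPM of Heyl, a range of 95.1 to 176 CPM that overlapped smooth muscle, and fibroblasts 36.9 CPM, well above their expected 4.49 CPM.

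Hey1 (ENSMUSG00000040289, chromosome 3, 8663359 to 8667256) lay between 21.0 and 45.1 CPM in endothelial cells, median 35.8, and between 3.81 and 5.44 CPM in smooth muscle cells, median 4.95, a ratio of 7.18 (6.54 to 7.89). Hey2 (ENSMUSG00000019789, chromosome 10, 30832359 to 30842801), known for its part in artery formation, was at 48.9 CPM in endothelial cells and 46.7 CPM in smooth muscle cells. The library ranges overlapped, 34.8 to 59.5 CPM around 47.4 and 37.2 to 54.9 CPM around 48.0. The ratio was 1.05 (0.997 to 1.10), with endothelium higher in 4 of 6 libraries. Schwann cell-like cells had 39.6 CPM of Hey2, with library values that ran from 0 to 67.2 CPM.

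Within endothelium, 4 subtypes were told apart by markers: 2022 large artery cells (Cytl1), 635 arteriole cells (Sema3g), 2640 capillary cells (Rgcc) and 2150 venous cells (Ackr1), with 951 endothelial cells left unnamed. Of the venous cells, 994 formed subcluster 3, which was named from the summed venous list although its leading genes include Prox1, a lymphatic marker, and no venous marker. Its Ackr1 level was 66.8 CPM, against 354 CPM in venous subcluster 4, and its level of Cytl1 was 1744 CPM. Venous values of the 10 genes are therefore also given without it, in an alternative chosen after seeing the data. In all, 8 of the 10 genes differed between a subtype and the rest of the endothelium, or 7 without the unnamed subclusters, where Notch3 was no longer called. Of all genes tested, the 4 subtypes had 3.22% to 7.77% called higher and 5.94% to 10.3% called lower. Each of these shares is for a single subtype and direction. The share of all genes called in any subtype is not given here, so the 8 of 10 has no matching share. Notch1 was not called in any subtype, and Heyl stayed under 10 CPM in each of the 4 subtypes. Notch1 had 361 CPM in large artery, 437 CPM in arteriole, 333 CPM in capillary and 292 CPM in venous cells.

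**Figure D2:**
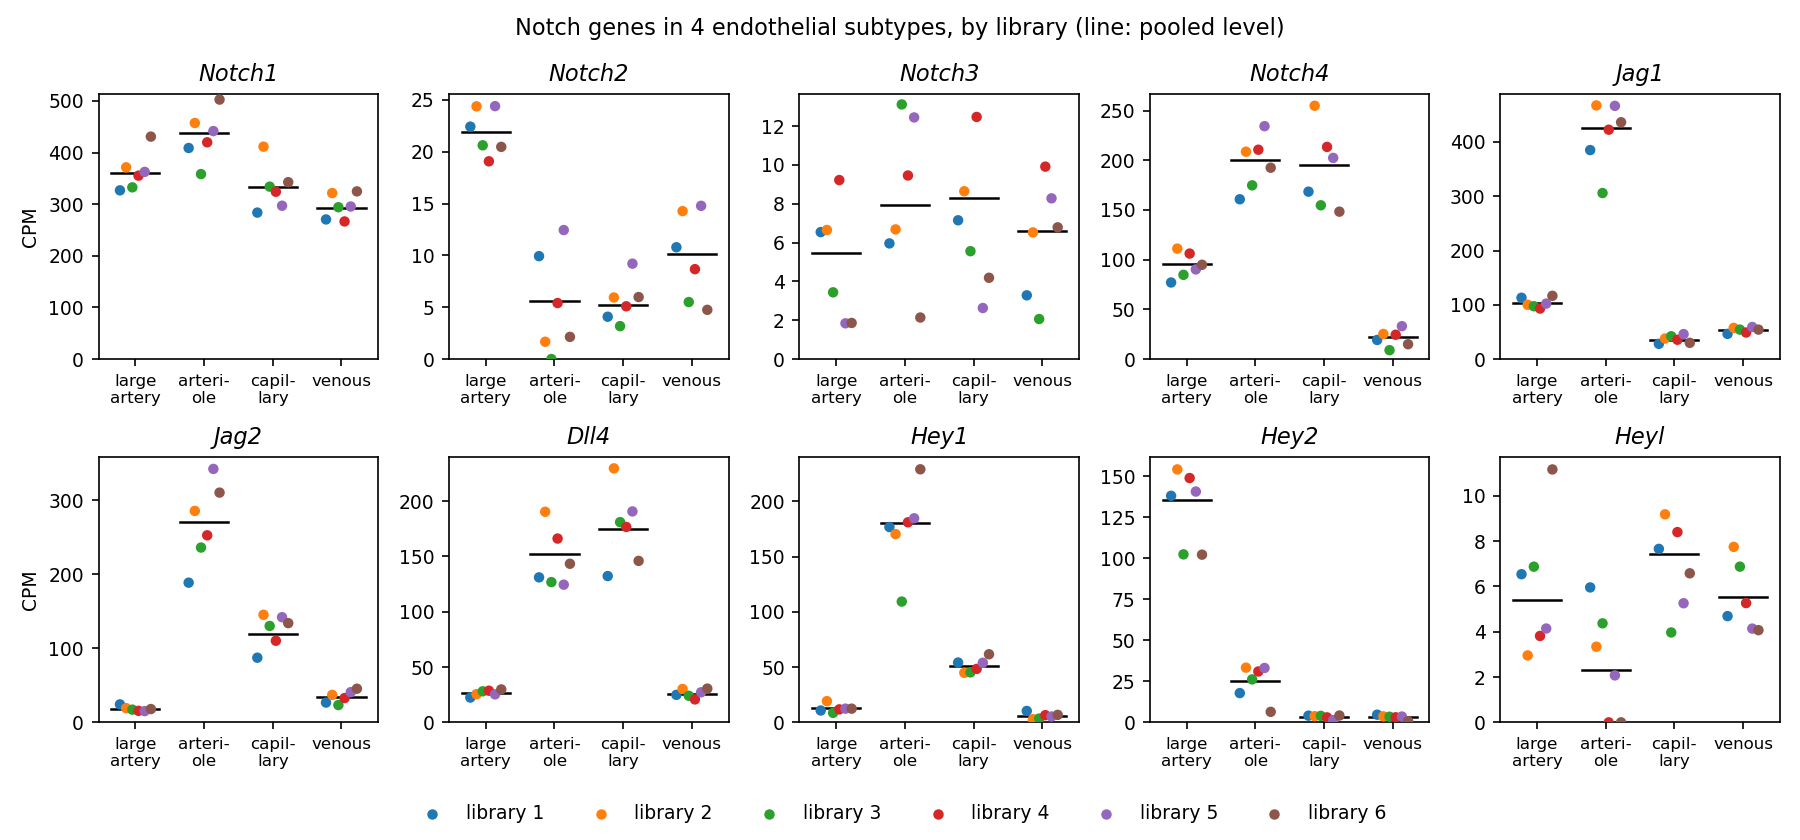
Level of each Notch gene (CPM, linear axes that start at 0) in large artery, arteriole, capillary and venous endothelial cells. Each point is 1 library, coloured by library, and each line is the pooled level. Hey2 in large artery cells, at 102 to 154 CPM, does not overlap any other subtype, nor do Jag1 and Hey1 in arteriole cells.

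Arteriole cells had the ligands at high levels. Here 4 of the 10 genes were higher than in other endothelial cells, Jag1, Jag2, Dll4 and Hey1, against 3.22% of all genes tested, and 1 was lower, Notch2, against 5.94%. Jag1 lay between 306 and 467 CPM in arteriole cells, median 429, and its pooled level was 6.26-fold that of the other endothelial cells (5.85 to 6.69). Jag2 lay between 189 and 342 CPM, median 269, a ratio of 4.94 (4.55 to 5.36). Hey1 ran from 109 to 229 CPM, median 179, a ratio of 7.52 (6.76 to 8.36). Dll4 ran from 124 to 190 CPM, median 137, with a ratio of 2.14 (1.94 to 2.36) that fell under 2 when every cell was given the same weight or thinned to 2000 UMIs. Notch2, at 5.63 CPM from 17 UMIs, was 2.42-fold higher in the other endothelial cells (1.49 to 4.18) and was not called without library 2, where the log2 ratio was -0.98. Notch4, at 200 CPM, missed the rule with a ratio of 1.97.

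Capillary cells shared Dll4 and Notch4 with arterioles and had little Jag1 and Hey2. The genes called higher were 3, Notch4, Jag2 and Dll4, against 7.77% of all genes, and the genes called lower were 3, Notch2, Jag1 and Hey2, against 10.3%. Dll4 lay between 132 and 230 CPM, median 179, which was 4.19-fold the rest (3.91 to 4.49). Notch4 lay between 148 and 255 CPM, median 185, 2.53-fold the rest (2.39 to 2.68). Jag1 was at 28.1 to 46.0 CPM, median 36.7, and was 3.22-fold higher in the other endothelial cells (2.90 to 3.57). Hey2 was at 1.31 to 4.19 CPM, median 3.87, and 18.6-fold higher in the others (13.6 to 26.1). The Jag2 and Notch2 calls were lost in thinned cells, with log2 ratios of 0.95 and -1.47. The Notch2 ratio stayed over 2-fold, so its call failed on level or on sign.

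Large artery cells had Hey2 and Notch2 high and Jag2, Dll4 and Hey1 low. The rule called 2 genes higher, Hey2 and Notch2, against 7.13% of all genes, and 4 lower, Notch3, Jag2, Dll4 and Hey1, against 9.42%. The Notch3 call was lost without the unnamed subclusters, with a log2 ratio of -0.45. Hey2 lay between 102 and 154 CPM, median 140, and was 13.8-fold higher than in the other endothelial cells (12.2 to 15.6). Notch2 lay between 19.1 and 24.4 CPM, median 21.5, a ratio of 2.42 (2.05 to 2.86) that fell under 2 with doublets kept. Dll4, at 22.4 to 29.8 CPM with a median of 26.8, was 3.74-fold higher in the others (3.35 to 4.18), and Jag2, at 15.2 to 24.3 CPM with a median of 17.6, was 5.13-fold higher (4.50 to 5.88). Jag1, at 93.1 to 117 CPM, was not called. The other endothelial cells included the unnamed subcluster 7, with 382 cells, Cytl1 at 6414 CPM and Hey2 among its leading genes. Without the unnamed subclusters Hey2 was at 135 CPM in large artery and 5.87 CPM in the other endothelial cells, a ratio of 23.1. The Notch2 ratio was then 2.90.

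Venous cells were low in 7 of the 10 genes, Notch3, Notch4, Jag1, Jag2, Dll4, Hey1 and Hey2, against 7.14% of all genes, and high in 0, against 4.13%. Notch4 lay between 8.93 and 33.1 CPM, median 21.8, and was 6.51-fold higher in the other endothelial cells (5.76 to 7.39). Hey1 lay between 2.85 and 10.3 CPM, median 5.91, and was 7.82-fold higher in the others (6.19 to 10.0). Hey2 lay between 0.678 and 4.69 CPM, median 3.49, and was 20.4-fold higher in the others (14.97 to 28.5). Among the other endothelial cells was an unnamed subcluster of 214 cells with 151 CPM of Notch3 and 1913 CPM of summed pericyte markers, against 224 CPM of these markers in all endothelial cells. Without the unnamed subclusters the log2 ratio of Notch3 moved to -0.06 for venous cells, and Notch3 was not called. The venous Notch3 call was also lost without library 1, with a log2 ratio of -0.99. Jag1 was 2.06-fold higher in the other endothelial cells (1.89 to 2.24), and its log2 ratio moved to -0.98 with doublets kept and -0.99 in thinned cells, which ended the call.

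Without subcluster 3, the venous cells that remained were those of subclusters 4 and 8. Subcluster 8 had 366 cells, a median of 1796.5 UMIs and ribosomal protein genes as its leading genes. Over both, Notch4 was at 37.3 CPM, against 143 CPM in the other endothelial cells, a ratio of 3.83. Jag1 was at 35.6 and 109 CPM, 3.06-fold higher in the others, and Notch2 at 4.91 and 14.2 CPM was called lower as well. Hey1, Hey2 and Dll4 were still called lower, while Jag2 and Notch3 were not, with log2 ratios of -0.81 and -0.79. The Dll4 call of arteriole cells was also lost, with a log2 ratio of 0.92.

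Hey1 and Hey2 parted within the arterial side. In a comparison made after these values were seen, 5 genes were higher in arteriole than in large artery cells, against 7.27% of all genes, and 2 were lower, against 7.18%. Hey1 was 14.0-fold higher in arteriole cells (11.8 to 16.8), and Hey2 was 5.32-fold higher in large artery cells (4.23 to 6.77). The library ranges did not overlap for either gene, with Hey2 at 6.42 to 33.4 CPM in arteriole cells and Hey1 at 8.59 to 19.2 CPM in large artery cells. Jag2 was 14.9-fold (12.9 to 17.3), Dll4 5.72-fold (4.97 to 6.59) and Jag1 4.15-fold higher in arteriole cells (3.85 to 4.48). Notch4 was 2.09-fold higher (1.89 to 2.30), a ratio that fell just under 2 without library 5.

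**Figure D3:**
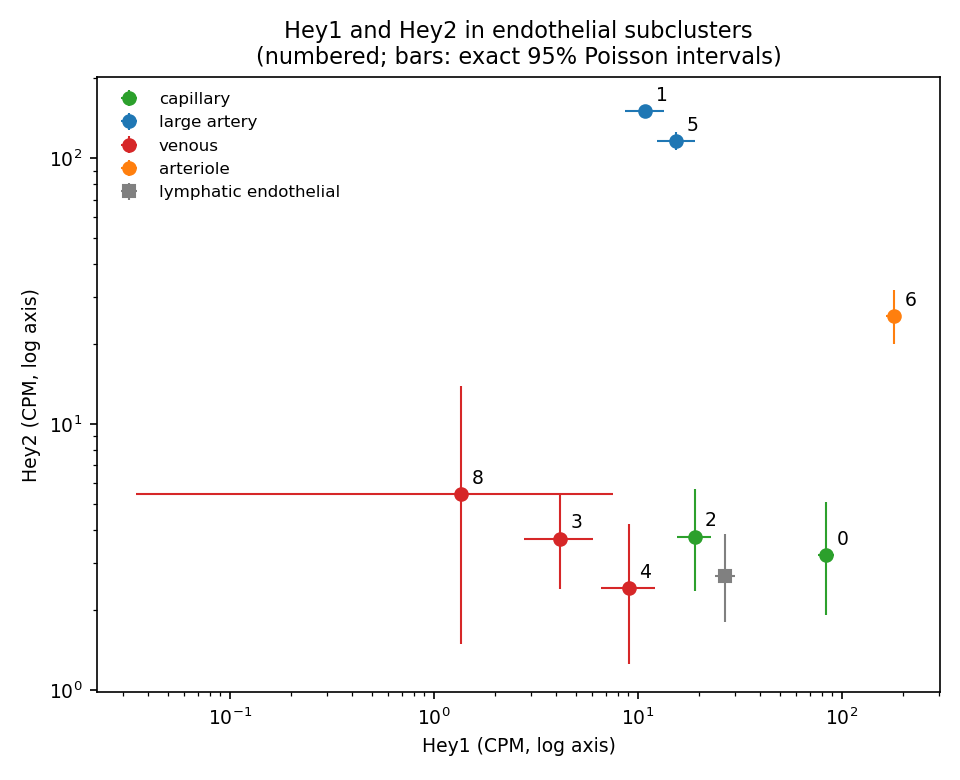
Hey1 against Hey2 (CPM, log axes) in the 8 named endothelial subclusters, numbered and coloured by subtype, and in lymphatic endothelial-like cells (grey square). Bars are exact 95% Poisson intervals. Large artery subclusters 1 and 5 have Hey2 at 150 and 116 CPM, and arteriole subcluster 6 has Hey1 at 181 CPM.

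The subtypes were not uniform. Large artery cells fell into subcluster 1 (1242 cells, led by Isl1 and Twist1) and subcluster 5 (780 cells, led by Coch and Klk10), both with cells in all 6 libraries. Jag2 was at 1.42 CPM in subcluster 1 and 40.3 CPM in subcluster 5, with library values of 0 to 2.79 and 31.5 to 51.9 CPM that did not overlap. The ratio was 28.3 (15.5 to 57.4), from 11 and 234 UMIs. Dll4 was 2.15-fold higher in subcluster 5 (1.73 to 2.69), a ratio that fell under 2 without library 1. These were the 2 genes called higher, against 2.32% of all genes, and 0 were lower, against 2.51%. Hey2 was not called, at 150 and 116 CPM.

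Capillary cells fell into subcluster 0 (1544 cells, led by Btnl9 and Rbp7) and subcluster 2 (1096 cells, led by Slc1a1 and Cxcl9). Of the 10 genes, 1 was called higher in subcluster 0, against 1.12% of all genes, and 0 lower, against 2.19%. That gene was Hey1, at 83.8 CPM with library values from 68.6 to 97.0 in subcluster 0, and at 19.0 CPM with values from 13.3 to 35.2 in subcluster 2. The ratio was 4.41 (3.58 to 5.47). Dll4 did not differ by the rule, at 173 and 176 CPM, a ratio of 0.982 (0.898 to 1.07). Median depth was 2685 UMIs in subcluster 0 and 4251.5 in subcluster 2. With every cell given the same weight the log2 ratio of Hey1 was 1.66 and the gene was no longer called. That ratio is still over 2-fold, so the call failed on level or on sign and not on the fold.

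Among venous cells, subcluster 4 (790 cells, led by Ackr1) and subcluster 3 (994 cells, led by Comp and Prox1) differed in 3 of the 10 genes. Notch4 was 4.72-fold (3.52 to 6.395) and Jag2 2.33-fold (1.90 to 2.87) higher in subcluster 4, against 3.02% of all genes. Notch2 was 4.26-fold higher in subcluster 3 (2.53 to 7.60), against 2.88% of all genes. Notch4 was at 42.03 CPM in subcluster 4, with library values from 10.8 to 71.7, and at 8.91 CPM in subcluster 3, with values from 3.65 to 12.4. In thinned cells the Jag2 log2 ratio was 0.96 and the Notch2 log2 ratio -4.27, and neither was called. The Notch2 ratio stayed over 2-fold, so its call failed on the 10 CPM floor or on the sign in each library.

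Lymphatic endothelial-like cells, 1547 in number and marked by Prox1 at 829.4 CPM, kept part of the endothelial set. Compared with the blood endothelial class, 3 genes were lower, Notch4, Jag2 and Hey2, against 8.06% of all genes, and 0 were higher, against 7.65%. Notch4 was at 5.57 CPM, 19.4-fold lower (15.1 to 25.5), Hey2 at 2.69 CPM, 18.2-fold lower (12.6 to 27.2), and Jag2 at 9.10 CPM, 7.66-fold lower (6.26 to 9.46). Notch1 was at 225 to 372 CPM, median 290, Dll4 at 40.6 to 108 CPM, median 55.5, and Hey1 at 23.6 to 32.6 CPM, median 26.2. All 3 overlapped the library ranges of the endothelial class. That class pools arterial, capillary and venous cells, so the ratios of Notch4, Hey2 and Jag2 depend on its mix. Venous cells had Hey2 at 3.30 CPM, near the lymphatic level, but Notch4 at 21.9 CPM and Jag2 at 34.1 CPM. Venous subcluster 3 had Notch4 at 8.91 CPM, Hey2 at 3.71 CPM and Jag2 at 22.4 CPM. A comparison of lymphatic cells with single blood subtypes was not made.

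In smooth muscle, 1850 cells were muscular-like, a name resting on Pln and other markers of contractile muscle of smaller arteries, and 8096 were elastic-like, resting on Mfap4 and other matrix genes. The elastic class includes subcluster 4, with 615 cells, of which 313 came from library 5, a median of 2341 UMIs, and leading genes of epithelial, B and mast cells such as Scgb1a1, Igkc and Tpsb2. Without it the elastic level of Notch3 was 38.9 CPM, and the same genes were called between muscular and elastic cells. Pln was at 260 CPM in muscular and 3.55 CPM in elastic cells, and Mfap4 at 39.2 and 403 CPM. A further 3097 smooth muscle cells stayed unnamed. Of these, 2542 formed subcluster 2, with Mfap4 at 461 CPM. Its best list was the elastic one, with a score of 1.454, but a list led by Thbd and Ltbp2 was close at 1.398. Of the 10 genes, 3 differed between the subtypes. Notch1, Notch3 and Jag1 were higher in muscular cells than in the other smooth muscle cells, against 5.92% of all genes, and 0 were lower, against 3.78%. In elastic cells 2 were lower than in the others, Notch1 and Notch3, against 2.59% of all genes, and 0 were higher, against 0.452%. These others include subcluster 2. Without the unnamed subclusters the others were the muscular cells alone, and Jag1 was called lower in elastic cells too. The Notch1 call of elastic cells was lost at a limit of 10% mitochondrial UMIs, with a log2 ratio of -0.91.

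Notch3 lay between 339 and 519 CPM in muscular cells, median 467, and between 29.1 and 42.3 CPM in elastic cells, median 39.8. Set directly against elastic cells, the same 3 genes were higher, against 6.37% of all genes, and 0 were lower, against 3.65%. The muscular level of Notch3 was 11.1-fold that of elastic cells (10.6 to 11.5), and the lowest muscular library stood above the highest elastic one. Jag1 lay between 69.9 and 127 CPM in muscular cells, median 90.7, and between 25.2 and 36.7 CPM in elastic cells, median 27.6, a ratio of 3.19 (2.99 to 3.40). Notch1 lay between 36.2 and 60.0 CPM, median 50.4, against 9.89 to 14.8 CPM, median 12.4, a ratio of 3.85 (3.5002 to 4.24). Summed endothelial markers were at 166 CPM in muscular and 97.8 CPM in elastic cells, and their part in the Notch1 difference was not tested. Notch4 and Dll4, carried by endothelial cells, stayed at 1.55 and 0.387 CPM in muscular cells.

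Of the 3 Hey targets, none was called between muscular and elastic cells. Hey1 was at 7.39 to 13.2 CPM in muscular and 2.05 to 4.75 CPM in elastic cells, ranges that did not overlap. Its ratio was 2.52 (2.04 to 3.097), but its pooled level of 8.91 CPM stayed under 10 CPM. Hey2 was at 58.2 to 92.5 CPM in muscular cells, median 81.1, and at 35.8 to 45.4 CPM in elastic cells, median 40.4. The ranges did not overlap, but the ratio of 1.99 (1.86 to 2.12) stayed under 2. Heyl was at 68.5 to 142 CPM, median 93.3, in muscular and 92.7 to 142 CPM, median 121, in elastic cells, and these ranges overlapped. Notch2 overlapped as well, at 33.2 to 65.2 and 36.1 to 64.1 CPM.

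**Figure D4:**
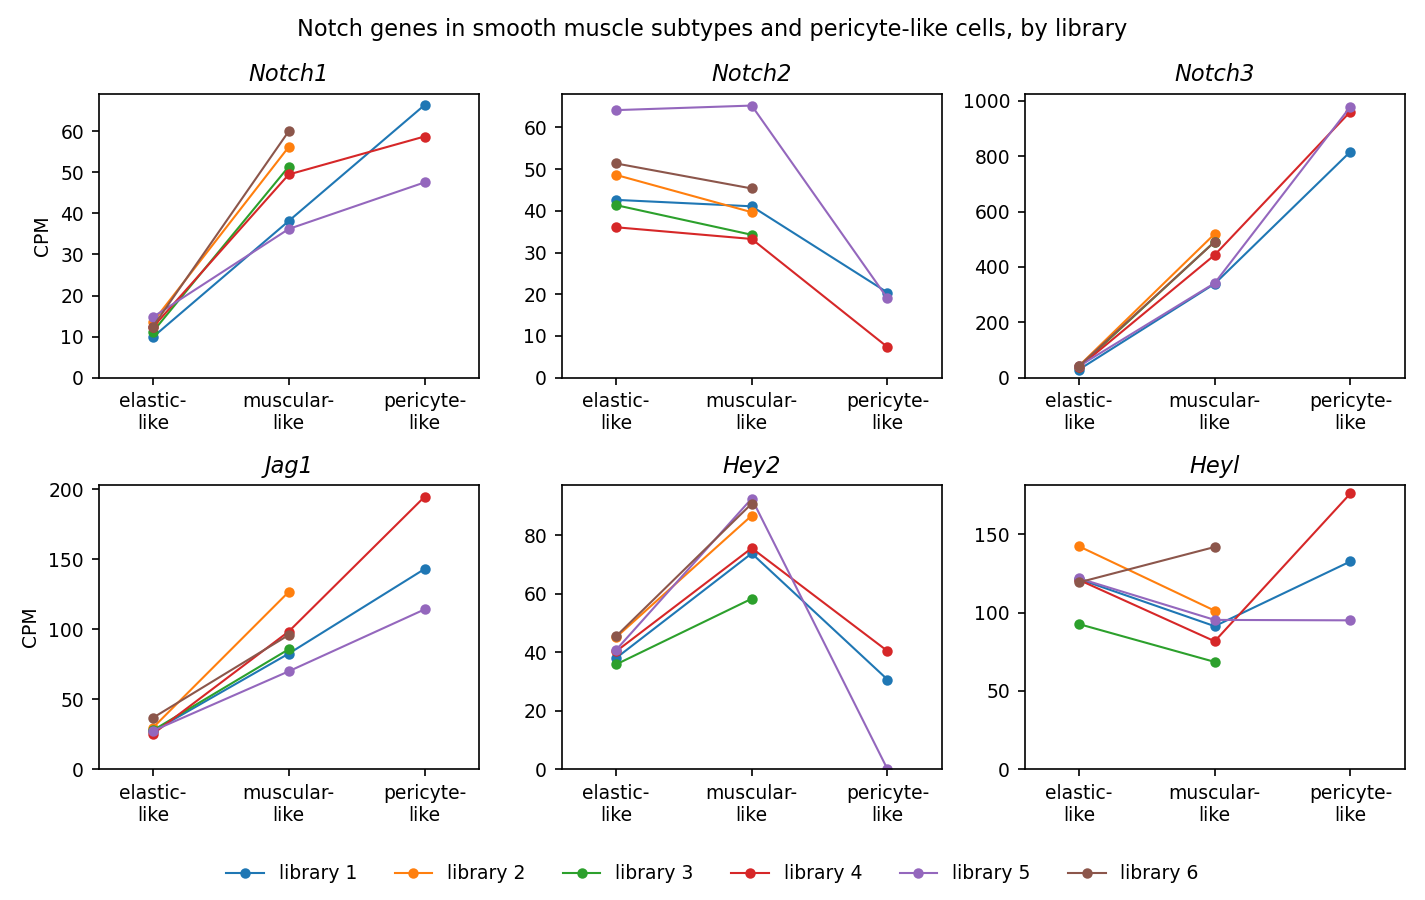
Level of 6 Notch genes (CPM, linear axes that start at 0) in elastic-like and muscular-like smooth muscle cells and in pericyte-like cells. Each point is 1 library and lines join points of the same library; pericyte-like cells have a point in the 3 libraries with at least 20 of them. Notch3 goes from 29.1 to 42.3 CPM in elastic cells to 339 to 519 CPM in muscular cells.

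The 4 muscular subclusters differed among themselves. Notch3 was at 839 CPM in subcluster 6 (517 cells, led by Olfr558 and Ndufa4l2), 421 CPM in subcluster 7, 223 CPM in subcluster 8 and 219 CPM in subcluster 5. Jag1 was at 148, 143, 72.5 and 56.5 CPM in the same order. Subcluster 7 (395 cells) was shallow, with a median of 1977 UMIs against 8924 to 10749 in the other muscular subclusters. Its summed smooth muscle markers were at 28178 CPM, against 49493 to 66313 CPM in those. Among the 4 elastic subclusters, Notch3 ran from 29.0 to 58.2 CPM. The unnamed subcluster 9 (230 cells) had 729 CPM of Notch3 and 111 CPM of Jag1.

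Notch3 in the whole smooth muscle class differed between libraries, from 53.2 CPM in library 3 to 204 CPM in library 4. The muscular share of smooth muscle cells was 3.20% in library 3 and 37.9% in library 4. Within muscular cells the same libraries had 491 and 443 CPM, and within elastic cells 38.0 and 37.8 CPM. Libraries could not be tied to samples, so whether the share reflects dissection, tissue or genotype cannot be told apart.

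**Figure D5:**
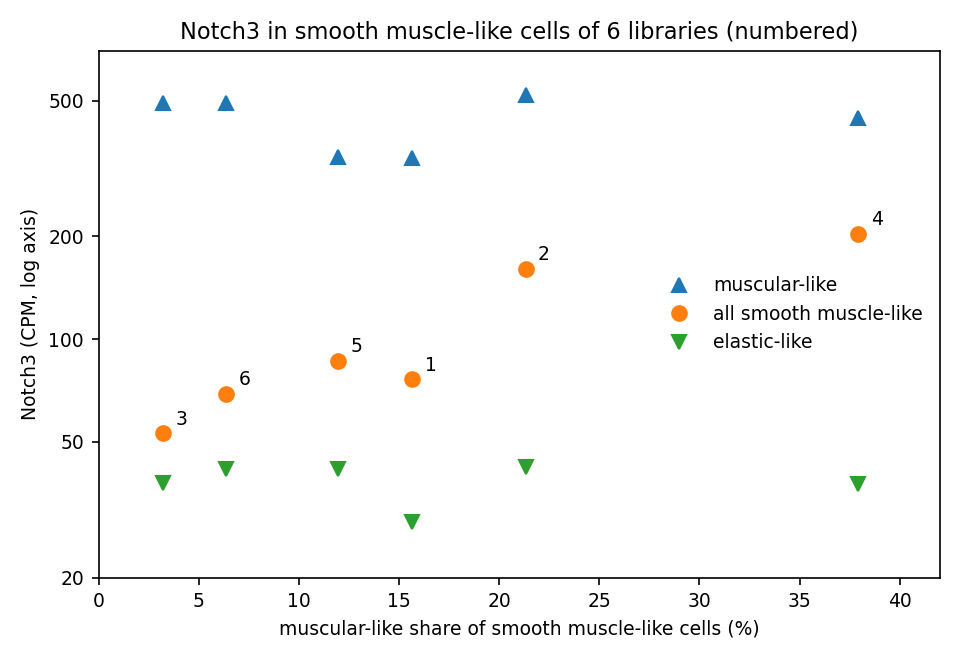
Notch3 level (CPM, log axis) in all smooth muscle-like, muscular-like and elastic-like cells of each library, against the muscular-like share of smooth muscle-like cells in that library (%). Numbers name the libraries. The class level runs from 53.2 to 204 CPM, and the elastic level from 29.1 to 42.3 CPM.

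Pericyte-like cells were compared with muscular cells after their values were seen. Levels, ratios and UMI counts were pooled over all 6 libraries. The sign was checked in the 3 libraries with at least 20 cells on both sides. Here 2 genes were higher, Notch3 and Notch4, against 13.4% of all genes, and 2 lower, Notch2 and Hey2, against 8.42%. Notch3 was 2.26-fold higher (2.10 to 2.44), and Hey2 was 3.18-fold lower (2.07 to 5.15), from 21 UMIs. The Notch4 ratio of 13.3 (6.73 to 25.9) rested on 17 UMIs, and without library 4 its log2 value moved from 3.74 to 1.69 and the call was lost. At 1.69 the ratio is still over 2-fold, so the call failed on level or on sign.

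The other pathway genes were taken from a list of 52. Between endothelial and smooth muscle cells, 13 of the 43 that reached 10 CPM were higher in endothelium and 3 were higher in smooth muscle, beside the 19.1% and 13% of all genes. Lfng and Mfng, glycosyltransferases that tune which ligand a receptor answers to, were at 83.5 and 71.4 CPM in endothelial cells and at 1.39 and 0.492 CPM in smooth muscle cells. Dll1, a Delta-type ligand, was at 59.4 and 1.32 CPM. Nrarp, an inhibitor that is itself a target, was at 66.0 and 5.54 CPM. Adam10, Adam17 and Psen2, which cut the receptor, were also higher in endothelium. So were Ncstn and Aph1b, partners of Psen2 in its protease complex, and Neurl1b, Neurl3, Numb and the target Efnb2. Neurl2, Numbl and Dtx3 were higher in smooth muscle. Rbpj itself was not called, at 41.7 CPM in endothelial and 63.3 CPM in smooth muscle cells.

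Across endothelial subtypes, venous cells were high in Lfng, at 184 CPM and 4.25-fold the rest, in Dll1, at 98.7 CPM and 2.26-fold, and in Neurl3, at 98.8 CPM and 7.06-fold. Psen2, Maml3 and Tle1 were higher there too, which made 6 of 42, against 4.13% of all genes. The genes lower in venous cells were 4 of 42, Nrarp, Efnb2, Hes6 and Aph1b, against 7.14%. These venous values include the doubtful subcluster 3 and are not given without it. Arteriole cells had Furin, a protease that processes the receptor precursor, at 130 CPM and 2.03-fold, the only 1 of 42 called higher, against 3.22% of all genes, and 4 lower, Lfng, Neurl1b, Neurl3 and Aph1b, against 5.94%. Large artery cells had Aph1b at 235 CPM and Aph1c at 19.4 CPM, 5.58-fold and 6.20-fold the rest, genes with near-identical copies whose reads may be split by counting, and 3 genes lower, Neurl1b, Neurl3 and Maml3. These were 2 and 3 of 43, against 7.13% and 9.42% of all genes. Capillary cells had Neurl1b at 45.4 CPM, 3.98-fold, and 7 genes lower, Dll1, Lfng, Neurl3, Psen2, Aph1b, Aph1c and Tle1. These were 1 and 7 of 43, against 7.77% and 10.3% of all genes. Lymphatic endothelial-like cells had Dtx1, a regulator of receptor turnover, at 281 CPM against 0.988 CPM, beside higher Psen2 and Aph1b and lower Mfng, Neurl1b and Nrarp, which made 3 and 3 of 44, against 7.65% and 8.06% of all genes. Between arteriole and large artery cells, Furin, Numb and Hes1 were higher in arteriole and Aph1b and Aph1c in large artery cells, 3 and 2 of 40, against 7.27% and 7.18%. Between paired subclusters, Aph1c was lower in large artery subcluster 5, 1 of 40, against 2.51% of all genes. Neurl3 was lower in capillary subcluster 0, 1 of 41, against 2.19%. Venous subcluster 4 had more Neurl1b and less Aph1b and Efnb2, 1 and 2 of 42, against 3.02% and 2.88%.

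In smooth muscle, 4 of 39 pathway genes were higher in muscular than in other cells, against 5.92% of all genes, and 0 were lower, against 3.78%. Nrarp was at 37.2 CPM in muscular and 0.609 CPM in elastic cells, and its library ranges of 26.9 to 49.7 and 0.385 to 1.43 CPM did not overlap. Hes1, a target shared with other pathways, was at 424 and 96.6 CPM, with ranges of 299.9 to 553 and 75.6 to 117 CPM. Neurl1b was at 26.2 and 1.16 CPM, and Maml3, a coactivator of the nuclear complex, at 19.6 and 5.91 CPM. In pericyte-like cells Dlk1, a ligand-like protein, was at 196 CPM, with 9.51 to 345 CPM over the 3 libraries, and Dtx4 at 42.6 CPM, both higher than in muscular cells, as were Dtx3, Maml3 and Aph1b, while Neurl2 and Efnb2 were lower. These were 5 and 2 of 41, against 13.4% and 8.42% of all genes.

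The genes most alike in pattern were sought by Pearson correlation of log2(CPM + 5) over 19 groups, the 13 classes and 6 subtypes of at least 100 cells, among 11547 genes that reached 20 CPM in some group. The groups share libraries, and subtypes are parts of their class, so the values are descriptions. Dll4 was most like Bcl6b, a transcriptional repressor (r = 0.984), Gm9889 (0.976) and Gm9917 (0.975). Notch3 was most like Stac (0.974), the insulin-regulated glucose transporter Slc2a4 (0.960) and the neuropeptide Y receptor Npy1r (0.931). Heyl was most like Pi15 (0.981), Olfr1034 (0.968) and Aoc3 (0.967). Notch1 was most like the kinase Pim3 (0.957), Slc12a7 (0.940) and Egfl7 (0.927), the last of which is an endothelial marker used for naming. Notch4 was most like Cldn15 (0.956), the arterial transcription factor Sox17 (0.952) and Ccny (0.927). Jag2 was most like Depp1 (0.928), B4galt4 (0.915) and Cmtm8 (0.906). Hey2 was most like the protease Htra1 (0.915), a large artery marker used for naming, Pde3a (0.854) and Fads3 (0.848). Lower values were the best for Notch2, with Gm42820 (0.896), Ltv1 (0.867) and Upb1 (0.853), for Hey1, with Map4k3 (0.888), Mpzl1 (0.886) and Igfbp3 (0.877), and for Jag1, with Zfp697 (0.864), Col8a1 (0.847) and Gper1 (0.844).

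Among the 10 genes, the closest pair over these groups was Notch4 and Dll4, r = 0.878, followed by Notch1 and Dll4, r = 0.855, and Notch3 and Heyl, r = 0.844. Hey1 and Hey2 had r = 0.267, and Notch2 ran against Hey1, r = -0.855.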

How the data were processed

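Droplet single-cell RNA sequencing of aortic tissue was measured in 6 samples. The deposited file is a single matrix of raw UMI counts, made with Cell Ranger 6.1.2 per the file headers. Cell Ranger 3.1.0, Seurat 3.1.1, bcl2fastq 5.01 and GRCm38 appear per the submitters' processing notes. Barcode suffixes match no sample title, so the planned genotype comparison (edgeR on counts summed per sample) was not made.

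Barcodes under 500 genes or over 20% mitochondrial counts were dropped, doublets called by Scrublet in each library (2.99% to 9.27%, scanpy 1.11.5) were removed, and 2000 variable genes, 30 principal components, 20 neighbours and Leiden clustering (leidenalg 0.10.2, resolution 0.5) were used without batch integration. Clusters were named from 31 marker lists by mean log2 ratio with 5 CPM added, with at least 3 markers detected; margins and the rules for subtypes were set after clusters had been seen. Endothelial and smooth muscle cells were clustered again on 20 components. The members and lists were chosen with earlier results of these data known. Comparisons of 2 subtypes, classes or subclusters were added after values had been seen, and a cluster against the rest is a description, not a test. The rule of size was checked on simulated counts with Poisson error only. These held no differences between libraries and no free RNA, so the check does not cover either. All 10 members are named, with every pathway gene called, and the 3 genes most alike to each member are printed. Coordinates come from GENCODE M21. Python 3.11.15, numpy 2.4.6, scipy 1.17.1 and pandas 2.3.3 were used. Alternatives are given in the closing section.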

Additional observations from a re-analysis of the deposited data

Results flagged for a closer look

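Library values of the 10 genes in endothelial and smooth muscle classes and subtypes formed 53 sets. Of these, 2 held a library that stood apart from the other 5. Chance alone gives about 1 in 20, so 2 of 53 is no more than chance would give. The sets share libraries and cells and are not independent. Hey1 in large artery cells of library 2 was at 19.2 CPM, above the other libraries, and stayed below every arteriole value. Notch3 in elastic cells of library 1 was at 29.1 CPM, below the other libraries.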

How the results depend on the processing

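Over 16 alternatives, the count of genes higher in endothelium was 5 to 6, of genes higher in smooth muscle 2 to 3, and of genes that differed between endothelial subtypes 6 to 9. The count between smooth muscle subtypes was 1 with a fold of 4 in place of 2 and 3 under the others. Leaving out each library in turn gave 6, 3, 8 and 3. No called member reversed its direction. At a Leiden resolution of 1.0 no arteriole subtype was found, so its comparisons have no value there. The fold of 4 ended 28 calls of single members by its construction. Of 38 calls in planned and 23 in added comparisons, 16 were lost under at least 1 of the other alternatives, and these are named in the report where they stand; the cause was not tested. Leaving out unnamed subclusters, and leaving out the endothelial subcluster 3 and smooth muscle subcluster 4, were chosen after seeing the data; the latter gave 6, 3, 8 and 3. Thinning left out 7465 cells. No paired analysis was possible because the cell barcodes carry no replicate number that ties a library to a genotype sample; cell classes were compared within each library. The genotype alternatives (DESeq2, no filter, a replicate block, leaving out replicates) were not run. Members under 10 CPM rest on few UMIs in a library.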
